A study of Mus musculus with 9 samples.

Results

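The list of Sox2 binding summits from cells with ectopic Sox2 alone holds 229 summits in 228 regions, and each was placed by the position of its summit relative to protein-coding genes. A summit was called a gene-end summit when it lay within 1 kb of an end of a gene span, an inside-gene summit when it lay elsewhere within a span, and an outside summit otherwise. These classes held 33, 82 and 114 summits, of 3370 summits in the 3 lists of the series. Each region was also checked for an overlap of at least 1 bp with the lists from wildtype cells (552 summits) and from cells with ectopic Sox2 and Nkx2-1 deletion (2589 summits). The members, the classes and the overlaps all come from the peak calls, so the values that follow describe these summits and no test was made on them.

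Sox2 ChIP-seq, which sequences the DNA that an antibody against Sox2 pulls down with crosslinked chromatin, was done on lung epithelial cells of the mouse strain C57BL/6 aged 8 weeks. The 3 groups were wildtype cells, cells with ectopic Sox2 and intact Nkx2-1, and cells with both ectopic Sox2 and deletion of Nkx2-1, with 1 Sox2 library each among the 9 libraries of the series. What drives ectopic Sox2 or deletes Nkx2-1, and whether animals were pooled, is not given in the sources used here. A peak list carries no expression, so the cell type, Sox2 and Nkx2-1 were taken from the labels. With 1 library per group no difference between groups has a replicate check, and intervals are exact 95% binomial or Poisson intervals that cover counting error only.

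Sox2 is an HMG-box transcription factor that bends DNA at a short AT-rich site, and in the foregut it marks the oesophagus and the proximal airway. Nkx2-1 is the homeodomain factor that sets lung identity. Sox2 is best known from enhancers, which lie inside genes and between them, while a promoter is the stretch at a gene's start where RNA polymerase is loaded. Promoters of genes that most cells use are often rich in CpG dinucleotides and carry general elements such as the GC box or the CCAAT box.

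Gene-end summits in the ectopic Sox2 list lay at gene starts wherever the strand was known. Strands, and the listed starts used below, were taken from RefSeq promoter entries (GRCm38.p6, the same build as mm10), which cover 79.9% of protein-coding genes. These entries gave a strand for the nearest gene of 23 of the 33, and 23 of 23 were nearer to the start than to the finish (interval 85.2% to 100%). The other 10 had no promoter entry, among them Znhit3, Psmd3, Vps28, Dctn6, Tcea1, Tmprss7, Eif2b3, Ccdc150 and Krt6a. The sequences that follow are the 200 bases before the start of 8 of these genes, shown because they are the DNA under the summits, with the 21 bases centred on the summit in capitals. They are the genes with a single listed start at the summit among the 10 strongest gene-end summits, then Mtf2, which all 3 lists hold, and last Sprr2a1, the cornified envelope gene of the class. Each is written 5′ to 3′ on the strand of its gene, from RefSeq, GRCm38.p6.
Pdcd5 (chr7:35647483-35647682, - strand): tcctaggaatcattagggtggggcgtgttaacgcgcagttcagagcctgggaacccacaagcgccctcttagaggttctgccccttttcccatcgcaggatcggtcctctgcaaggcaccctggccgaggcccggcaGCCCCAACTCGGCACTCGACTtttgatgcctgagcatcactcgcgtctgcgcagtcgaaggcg
Snrpb2 (chr2:143062869-143063068, + strand): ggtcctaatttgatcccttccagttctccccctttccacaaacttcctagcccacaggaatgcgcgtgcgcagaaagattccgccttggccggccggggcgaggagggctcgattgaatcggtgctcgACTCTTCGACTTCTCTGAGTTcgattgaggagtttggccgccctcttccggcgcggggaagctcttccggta
Nrarp (chr2:25180558-25180757, + strand): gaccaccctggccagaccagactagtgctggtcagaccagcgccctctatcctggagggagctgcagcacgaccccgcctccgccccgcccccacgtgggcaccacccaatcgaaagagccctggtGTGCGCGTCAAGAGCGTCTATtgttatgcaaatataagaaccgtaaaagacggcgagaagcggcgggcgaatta
Ino80 (chr2:119477688-119477887, - strand): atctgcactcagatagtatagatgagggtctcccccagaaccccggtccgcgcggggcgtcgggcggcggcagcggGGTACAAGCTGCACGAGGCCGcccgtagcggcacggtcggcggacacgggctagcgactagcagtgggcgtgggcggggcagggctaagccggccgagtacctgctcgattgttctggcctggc
Snx18 (chr13:113618565-113618764, - strand): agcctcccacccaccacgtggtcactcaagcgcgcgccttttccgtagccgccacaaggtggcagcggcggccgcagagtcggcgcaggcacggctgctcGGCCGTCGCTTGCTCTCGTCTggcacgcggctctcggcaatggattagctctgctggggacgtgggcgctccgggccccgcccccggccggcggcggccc
Lsm5 (chr6:56704700-56704899, - strand): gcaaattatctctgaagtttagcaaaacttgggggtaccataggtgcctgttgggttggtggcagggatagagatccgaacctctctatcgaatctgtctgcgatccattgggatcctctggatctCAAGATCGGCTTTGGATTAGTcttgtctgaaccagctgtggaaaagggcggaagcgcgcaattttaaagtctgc
Mtf2 (chr5:108065474-108065673, + strand): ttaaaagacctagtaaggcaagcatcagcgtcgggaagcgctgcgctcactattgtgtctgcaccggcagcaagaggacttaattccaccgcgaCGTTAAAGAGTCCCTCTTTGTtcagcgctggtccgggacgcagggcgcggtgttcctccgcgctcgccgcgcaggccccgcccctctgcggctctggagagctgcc
Sprr2a1 (chr3:92215635-92215834, + strand): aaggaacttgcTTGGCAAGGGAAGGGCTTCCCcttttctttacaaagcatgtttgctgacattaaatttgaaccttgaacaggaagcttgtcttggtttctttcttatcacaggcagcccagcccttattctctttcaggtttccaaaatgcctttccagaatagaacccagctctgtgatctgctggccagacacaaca
The capitals sit 53 to 114 bases before the start in all of these but Sprr2a1, where they sit 179 bases before it. In order, the stretches hold 15, 17, 16, 23, 27, 7, 20 and 0 CpG dinucleotides, so the Sprr2a1 stretch has the fewest.

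The tight placing was seen across the class. The median gene-end summit lay 55 bp from the gene end (quartiles 27 and 82 bp), although the class allows 1 kb, and 26 of the 33 lay within 100 bp. In wildtype 13 of 24 gene-end summits lay within 100 bp (median 72.5 bp), and with Nkx2-1 deletion 32 of 90 did (median 181.5 bp). As a share of the class this is 78.8% (interval 61.1 to 91.0) with ectopic Sox2, 54.2% (32.8 to 74.4) in wildtype and 35.6% (25.7 to 46.3) with Nkx2-1 deletion. The intervals of the ectopic Sox2 and Nkx2-1 deletion shares do not overlap, and that of wildtype overlaps both. A listed start lay within 1 kb of 24 ectopic Sox2 gene-end summits, and 22 of these sat between 120 bp before and 60 bp after it. With Nkx2-1 deletion 19 of 50 did, and in wildtype 10 of 14. This window was not planned and lies close around the ectopic Sox2 summits, so the 3 counts favour that list. Where the strand was known, 16 of 16 wildtype gene-end summits were nearer to a start, as in the ectopic Sox2 list. With Nkx2-1 deletion 53 were nearer to a start and 18 to a finish.

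**Figure D1:**
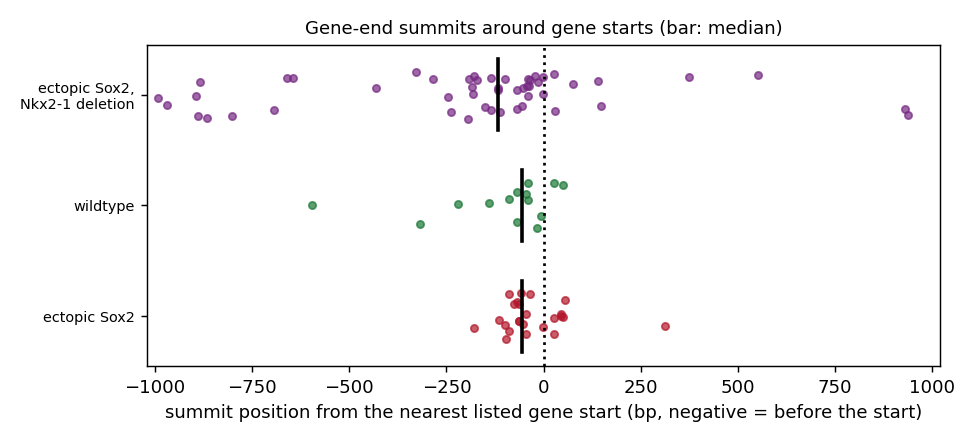
Position of gene-end summits (points, spread vertically only for sight) from the nearest listed start of a protein-coding gene, in bp, by list; bars are medians. The 24 ectopic Sox2 points reach from 179 bp before the start to 312 bp after it. Those with Nkx2-1 deletion reach from 991 bp before to 939 bp after.

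Windows of 1 kb around gene ends cover 2.93% of the sequence between the first and last annotated gene of each chromosome. They held 14.4% of ectopic Sox2 summits (interval 10.1 to 19.6), 4.35% of wildtype summits (2.81 to 6.40) and 3.48% of summits with Nkx2-1 deletion (2.80 to 4.26). Windows of 100 bp cover 0.318% of that sequence and held 11.4% (7.55 to 16.2), 2.36% (1.26 to 3.99) and 1.24% (0.847 to 1.74). Inside-gene sequence makes up 36.6%, and held 35.8% of ectopic Sox2 summits (29.6 to 42.4), 44.6% of wildtype summits (40.4 to 48.8) and 46.9% with Nkx2-1 deletion (44.9 to 48.8). Sequence outside genes makes up 60.5%, and held 49.8%, 51.1% and 49.7%. At gene ends the interval of the ectopic Sox2 share lay above those of both other lists, and inside genes it lay below that of Nkx2-1 deletion and overlapped that of wildtype. Cut to their own 229 strongest summits by −log10 q, a step added after the data were seen, the wildtype list held 13 gene-end summits (5.68%) and the Nkx2-1 deletion list 7 (3.06%).

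**Figure D2:**
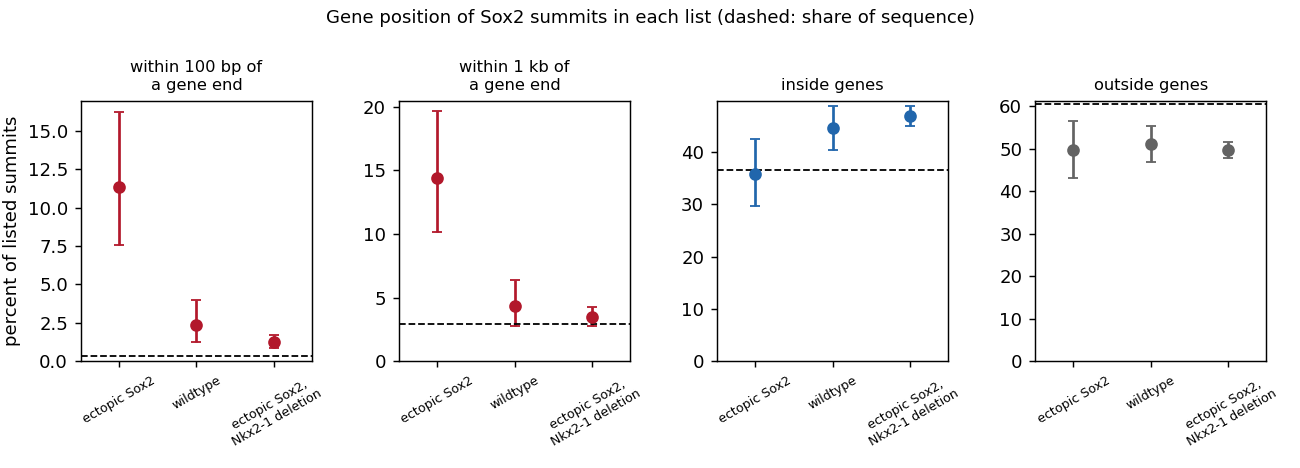
Percent of summits in each list within 100 bp of a gene end, within 1 kb of one, inside genes and outside genes (points), with exact 95% binomial intervals; the dashed line is the share of annotated sequence in that class. The ectopic Sox2 point is at 11.4% and 14.4% in the left-hand panels, above wildtype at 2.36% and 4.35% and Nkx2-1 deletion at 1.24% and 3.48%.

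By −log10 q and by fragments, the median gene-end summit was also stronger than the median of either other class of the ectopic Sox2 list. Of its 25 summits of largest −log10 q, the value that the authors' peak caller corrects for multiple testing, 11 were at gene ends, against 2 of 25 in wildtype and 1 of 25 with Nkx2-1 deletion. Of the strongest 115 summits 27 were at gene ends (23.5%), and of the other 114 only 6 were (5.26%). The median gene-end summit rested on 36 ChIP fragments (range 18 to 63), against 23 inside genes (11 to 61) and 22 outside (10 to 65). The authors' median fold over the control background was 7.78 at gene ends, 6.56 inside genes and 6.29 outside.

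The control background also differed between the classes. Its median was 3.13 fragment equivalents at gene ends, 1.88 inside genes and 1.57 outside, where the mean coverage of the library was 0.764. Gene-end summits therefore had more fragments and more control signal, and their part in one another was not tested. In wildtype the median control was 4.32 at gene ends against 2.70 in either other class, and with Nkx2-1 deletion it was 4.72 in all 3 classes. The fragment median in wildtype was 34.5 at gene ends and 23 in the others, while with Nkx2-1 deletion it was 39, 38 and 39. Relative to the mean coverage of each library, the gene-end median was 47.1 times with ectopic Sox2, 35.8 times in wildtype and 26.9 times with Nkx2-1 deletion. The ectopic Sox2 list was also highest inside genes, at 30.1 times against 23.9 in wildtype and 26.2 with Nkx2-1 deletion, and outside, at 28.8 against 23.9 and 26.9. These medians cover listed summits only. The lowest listed summit held 10 fragments with ectopic Sox2, 10 in wildtype and 15 with Nkx2-1 deletion, at mean coverages of 0.764, 0.963 and 1.45. The ectopic Sox2 list thus had the highest floor relative to its coverage, and the part of this in its higher medians was not tested.

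**Figure D3:**
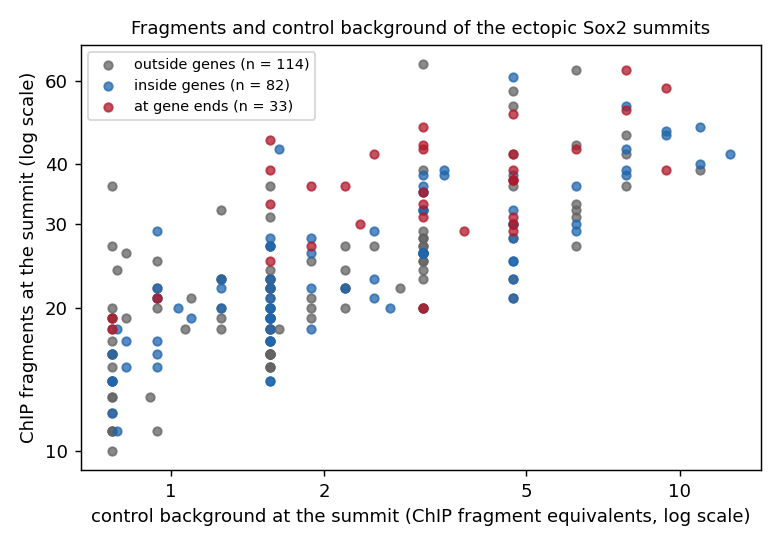
ChIP fragments against control background for each of the 229 ectopic Sox2 summits, both on log scales and in fragments of the ChIP library, coloured by class. Gene-end points (red) run from 18 to 63 fragments, against 11 to 61 inside genes and 10 to 65 outside.

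The 33 gene-end summits lay at the ends of 37 protein-coding genes, which is 0.169% of the 21887 annotated. The wildtype list reached the ends of 0.11% of these genes and the Nkx2-1 deletion list those of 0.439%. The strongest lay at Znhit3, a factor in the assembly of small nucleolar RNA complexes, at chromosome 11, 84916254 to 84916568, with 45 fragments (interval 32.8 to 60.2) and a fold of 14.9. Other genes of RNA handling were Snrpb2, a protein of the U2 spliceosomal particle, with 48 fragments (35.4 to 63.6) at chromosome 2, 143062905 to 143063121, and Lsm5, an Sm-like protein that binds U6 RNA, with 33 (22.7 to 46.3) at chromosome 6, 56704640 to 56704878. The summit 27 bp from the nearest of the adjoining ends of Ttc37, a subunit of the complex that feeds RNA to the exosome, and the sulfatase gene Arsk held 36 fragments (25.2 to 49.8). Transcription and chromatin genes were Ino80, the ATPase of a nucleosome remodeller, with 44 fragments, Mtf2, a Polycomb accessory protein, with 42, Taf3, a subunit of TFIID, with 39, the elongation factor gene Tcea1 with 43, and Kdm8 with 58. Each of these was above the median of 23 fragments of the whole list. So was most of the class, whose lower quartile was 30 fragments.

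Among genes of DNA repair, Palb2, which brings Brca2 to broken DNA, shared a summit with Dctn5, a dynactin subunit, with 63 fragments (48.4 to 80.6) at chromosome 7, 122132842 to 122133128, the most of any gene-end summit. Fan1, a nuclease for DNA crosslinks, had 36 fragments at chromosome 7, 64373976 to 64374234, and the summit between Vps28, a sorting protein, and Tonsl, a replication repair protein, had 35. The proteasome genes Psmd3 and Psma1 had 51 (38.0 to 67.1) and 31 fragments. Pdcd5, tied to programmed cell death, had 39 fragments (27.7 to 53.3) at a fold of 12.9, and Snx18, a sorting nexin, had 43 (31.1 to 57.9). Membrane and organelle genes were Exoc2, Vamp4, Vps13d, Heatr5a, Dctn6, Mrps15 and Pet117, with 21 to 52 fragments. Kat14, a gene of another kind, shared the summit of Pet117. Ptma, Eif2b3, Hdgf, Ccdc150, Brd3os and Tmprss7 had 18 to 39.

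The last 3 genes of the class belong to other programmes. Nrarp, a feedback inhibitor of Notch signalling, had 42 fragments (30.3 to 56.8) at chromosome 2, 25180585 to 25180813. Krt6a, a keratin of stressed and stratified epithelium, had 29 fragments 254 bp from its gene, and Sprr2a1, a cornified envelope protein, had 20 (12.2 to 30.9) and the lowest −log10 q of the class at 2.25. Both squamous genes were thus among its weaker summits.

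The 1 kb limit itself cut through few summits. Just inside it were Ino80 at 884 bp and Tmprss7 at 866 bp, then Krt6a at 254, Dctn6 at 185 and Sprr2a1 at 179. Ino80 belongs nonetheless at a start, since its summit lay 114 bp before a listed start within the span. Just outside were Mvd at 1182 bp, 1700016C15Rik at 1222, Pik3c2a at 1256, Rpl22 at 1323, Cspg4 at 1507 and Dapk2 at 1995. Of these, Rpl22, a ribosomal protein gene, had its summit 33 bp after a listed start, with 46 fragments. In all, 4 inside-gene summits lay within 200 bp of a listed start of their own gene, at Rpl22, Rsrc1, Shroom3 and Arhgap32.

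Promoter windows of 300 bases, from 250 before to 50 after a start, covered the summit of 22 gene-end members. Their median CpG count was 24.5 (range 1 to 35), against 13 over all 21006 windows of protein-coding genes, 22 for 11 wildtype gene-end windows and 17.5 for 30 with Nkx2-1 deletion. Windows with at least 18 CpG, a limit set at the lower quartile of the members themselves, made up 40.7% of all windows and are called CpG-rich here. The GC box (GGGCGG, either strand) stood in 16 of 22 windows, or 72.7% (interval 49.8 to 89.3), against 46.6% of all windows but 80.1% of CpG-rich windows. The CCAAT box (CCAAT) stood in 10 of 22, against 38.2% of all. Its interval was 24.4% to 67.8%, and 34.6% of CpG-rich windows hold it, so for both motifs the share in CpG-rich promoters lies within the interval of the members.

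Sox motifs were found in some of these windows. The Sox core in its forms ACAAT and ACAAAG, searched on both strands, was in 9 of 22 windows, against 38.5% of all windows and 21.3% of CpG-rich ones. ACAAT alone was in 7 of 22, in 4 of 11 wildtype gene-end windows and in 9 of 30 with Nkx2-1 deletion. ACAAAG was in 3 of 22, 3 of 11 and 14 of 30. Within 50 bases of the summit either form was found in 4 of 22: Nrarp, Mtf2, Ptma and Sprr2a1. No share over all windows was taken for so short a stretch, so this count has no comparison. At Ptma, Vamp4, Psma1, Brd3os and Mrps15 the window ended less than 50 bases after the summit, so only part of that stretch was searched. In the Nrarp stretch printed above, the Sox core, read on that strand as ATTGT, runs over the last bases in capitals, and ATGCAAA, the octamer motif bound by Oct factors, follows it. The Nkx2-1 core (CAAGTG) was in 4 of 22 windows (12.9% of all, 8.37% of CpG-rich), at Ptma, Pet117, Heatr5a and Psma1. The ETS motif, spelled CCGGAAG, stood in 4 windows, or 18.2%, against 11.7% of all windows and 20.1% of CpG-rich ones. The E-box, spelled CACGTG, also stood in 4 (7.90% of all and 11.7% of CpG-rich windows). The CRE motif, searched as TGACGT, stood in 2 windows (8.56% of all, 13.1% of CpG-rich). NRF1, searched as GCATGCG, stood in 1 window (4.47% of all, 7.60% of CpG-rich). The octamer motif stood in 1 window, at Nrarp (4.26% of all windows). TATA, searched as TATAAA, stood in 1 window, or 4.55%, against 12.5% of all and 3.95% of CpG-rich windows. TEAD, searched as GGAATG, stood in 1 against 13.5% of all and 9.09% of CpG-rich windows. YY1 (AAGATGG), AP-1 (TGANTCA) and Fox (TGTTTAC) stood in 0 of 22, against 6.29%, 6.99% and 3.02% of all windows and 6.68%, 2.94% and 1.82% of CpG-rich ones. In wildtype gene-end windows these 3 stood in 0, 0 and 1 of 11, and with Nkx2-1 deletion in 5, 7 and 1 of 30. With 22 ectopic Sox2 windows the interval of each motif share is wide, and a match of letters is not a bound site.

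A smaller share of gene-end regions than of the other classes was found in the other lists, and the intervals of the classes overlap. Of all ectopic Sox2 summits 44.1% overlapped the wildtype list, 52% the Nkx2-1 deletion list and 31.4% neither. At gene ends 10 of 33 overlapped wildtype (30.3%, interval 15.6 to 48.7) and 10 overlapped Nkx2-1 deletion, with 17 in neither (51.5%, 33.5 to 69.2). Inside genes 36 of 82 overlapped wildtype (43.9%) and 44 Nkx2-1 deletion (53.7%), with 24 in neither (29.3%, 19.7 to 40.4). Outside genes the counts of 114 were 55 (48.2%), 65 (57.0%) and 31 (27.2%, 19.3 to 36.3). Seen from the other side, 10 of the 24 wildtype gene-end summits (41.7%) but 10 of the 90 with Nkx2-1 deletion (11.1%) overlapped an ectopic Sox2 region, where the shares over all summits were 18.3% and 4.60%. A higher share of gene-end summits than of all summits thus recurred when counted from those lists.

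**Figure D4:**
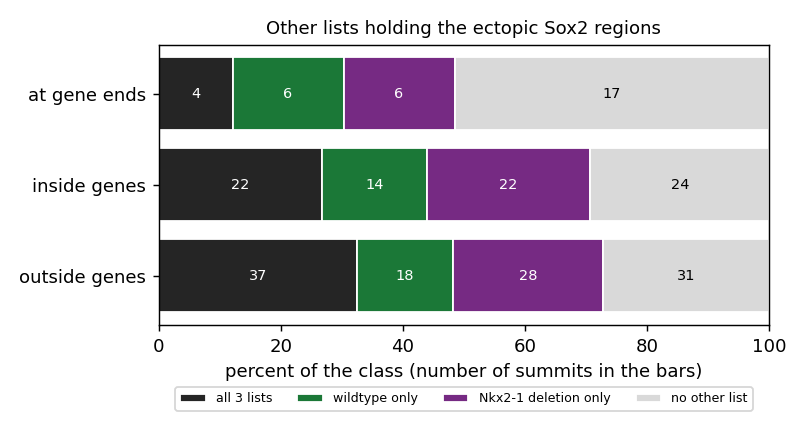
Percent of ectopic Sox2 summits in each class whose region overlapped both other lists, the wildtype list only, the Nkx2-1 deletion list only or neither; numbers in the bars are summits. Neither list held 17 of 33 gene-end summits, 24 of 82 inside genes and 31 of 114 outside.

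The 17 gene-end summits in neither other list included those at Znhit3, Ino80, Snx18, Ttc37 and Arsk, Fan1, Dctn6, Pet117 and Kat14, Taf3, Tcea1, Vamp4, Eif2b3, Heatr5a, Psma1, Brd3os, Mrps15 and Vps13d. None of the 17 had a summit of another list within 1 kb, and the nearest lay 10.3 kb away, from the Nkx2-1 deletion list at Vamp4. Both other libraries were deeper than that of ectopic Sox2, with a mean coverage of 0.963 fragments in wildtype and 1.45 with Nkx2-1 deletion against 0.764, and their lists reached down to a lower −log10 p (5.27 and 4.70 against 5.47). The files give no fragments at sites that were not listed, so how far below the threshold these sites lay is unknown.

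The 4 gene-end summits in all 3 lists were Nrarp, Psmd3, Mtf2 and Ccdc150. At Nrarp the fragments were 42 with ectopic Sox2, 69 in wildtype and 56 with Nkx2-1 deletion. Scaled by depth, the wildtype ratio to ectopic Sox2 was 1.30 (interval 0.875 to 1.96) and the Nkx2-1 deletion ratio 0.701 (0.462 to 1.07), and both intervals include 1. Psmd3 had 51, 40 and 54 fragments, with ratios of 0.622 (0.401 to 0.960) and 0.557 (0.373 to 0.833), so it was lower in both other libraries beyond counting error. Mtf2 had 42, 58 and 86, with ratios of 1.09 (0.724 to 1.67) and 1.08 (0.737 to 1.60), and Ccdc150 had 37, 51 and 70, with ratios of 1.09 (0.702 to 1.72) and 0.995 (0.659 to 1.53). No difference between libraries was detectable at this depth for either.

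Fragments were compared where a region was listed both with and without Nkx2-1 deletion. At 10 shared gene-end regions the median depth-scaled ratio of Nkx2-1 deletion to ectopic Sox2 was 0.686 (range 0.557 to 1.81), and 7 of the 10 were below 1. Inside genes the median of 44 was 1.27 (0.734 to 3.53) with 8 below 1, and outside genes that of 65 was 1.31 (0.334 to 3.95) with 15 below 1. The regions of a class come from the same pair of libraries and are not replicates, so the difference between these medians was not tested. The regions were chosen by their listing with ectopic Sox2 and in the other library. Gene-end members also had the most ectopic Sox2 fragments, the denominator of the ratio, and the part of this in the lower median was not tested. With ends of all annotated genes, noncoding ones included, the gene-end median was 1.04 over 16 regions, so the direction depends on which genes are counted.

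Single gene-end regions showed both directions, with 4 of 10 lower and 1 higher with Nkx2-1 deletion beyond counting error. Inside genes 0 of 44 were lower and 11 higher, and outside genes 1 of 65 was lower and 15 higher. Over all 119 shared regions 5 were lower and 27 higher. Lower with Nkx2-1 deletion beyond counting error were Psmd3, Pdcd5 at 43 against 39 fragments (ratio 0.580, interval 0.367 to 0.919), Exoc2 at 58 against 52 (0.587, 0.397 to 0.870) and the Vps28 and Tonsl summit at 40 against 35 (0.601, 0.372 to 0.975). Lsm5, at 42 against 33, had a ratio of 0.670 (0.414 to 1.09). Higher with Nkx2-1 deletion was Sprr2a1 alone, at 69 against 20 fragments (1.81, 1.09 to 3.15), and Krt6a, at 60 against 29, had a ratio of 1.09 (0.688 to 1.76). Without these 2 squamous genes, left out after their values were seen, the other 8 ranged from 0.557 to 1.08, with a median of 0.635. The Nkx2-1 deletion list also held summits before the starts of Sprr2a2 (57 fragments) and Sprr2a3 (71). The ectopic Sox2 list had no gene-end summit at either gene. How reads were shared among the Sprr2a genes was not tested.

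The same scaling was done against wildtype. The median ratio of wildtype to ectopic Sox2 was 0.872 at 10 gene-end regions, 1.06 at 36 inside genes and 1.05 at 55 outside. Lower in wildtype beyond counting error were Kdm8 at 44 against 58 fragments (0.602, 0.397 to 0.906), Palb2 and Dctn5 at 54 against 63 (0.680, 0.464 to 0.993), and Psmd3. Snrpb2 at 50 against 48 (0.826, 0.545 to 1.25), Hdgf at 32 against 39 (0.651, 0.395 to 1.07), Tmprss7 at 22 against 19 (0.918, 0.474 to 1.79) and Ptma at 48 against 30 (1.27, 0.788 to 2.07) had intervals that include 1. The internal starts of Rpl22 and Rsrc1, classed inside genes, had ratios of 0.603 (0.377 to 0.957) and 0.641 (0.407 to 1.00). No gene-end region was higher in wildtype beyond counting error, but such regions were rare in every class. Inside genes 1 of 36 was higher and 1 lower, and outside genes 0 of 55 were higher and 1 lower. The 0 at gene ends therefore does not set that class apart.

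**Figure D5:**
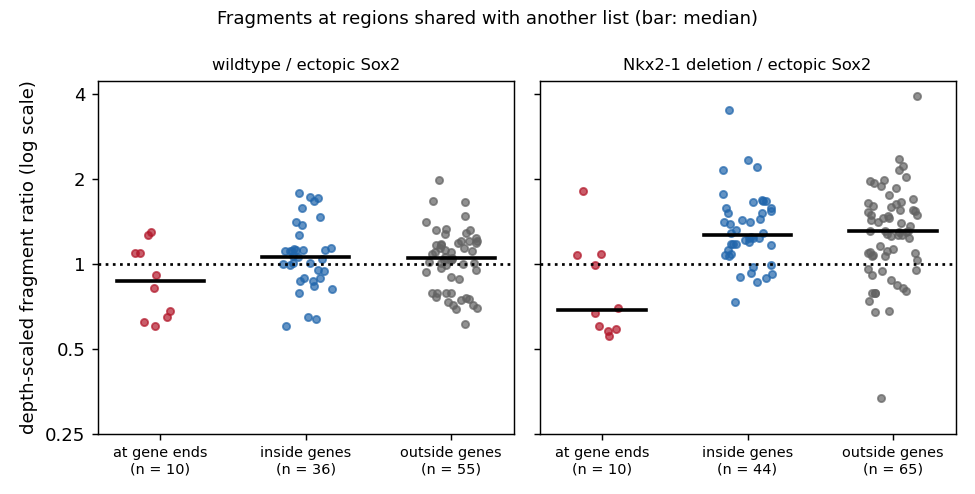
Depth-scaled ratio of fragments (log scale) at ectopic Sox2 regions that the wildtype list (left) or the Nkx2-1 deletion list (right) also held, 1 point per summit, by class; bars are medians and the dotted line is 1. On the right, gene-end points have a median of 0.686 against 1.27 inside genes and 1.31 outside.

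Any ectopic Sox2 summit, gene-end ones included, lay inside the span of 0.439% of protein-coding genes, against 1.01% in wildtype and 4.42% with Nkx2-1 deletion. The 82 summits inside genes fell in 79 genes with a median span of 149 kb and lay a median of 31.1 kb from the nearest end. Long genes offer more positions and the class leaves out the 1 kb at each end, so these 2 values partly follow from the rule. The strongest was in Vsnl1, a neuronal calcium sensor, at chromosome 12, 11389143 to 11389476, with 43 fragments and a fold of 13.9. The wildtype list did not hold it, and with Nkx2-1 deletion it had 96 fragments (ratio 1.17, 0.812 to 1.73). Next was Aspa, which encodes aspartoacylase, at chromosome 11, 73318561 to 73318913, with 61 fragments against 67 in wildtype (0.871, 0.606 to 1.25) and 108 with Nkx2-1 deletion (0.931, 0.674 to 1.30). The intervals of all these ratios include 1.

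Of the next inside-gene summits, Clrn1, Fkbp9, Marchf6, Zfp608 and Runx2 were found in all 3 lists and Lemd1 with Nkx2-1 deletion only. Runx2, a Runt-domain factor of bone, had 53 fragments at chromosome 17, 44548035 to 44548326, and 146 with Nkx2-1 deletion (ratio 1.45, 1.05 to 2.02). Marchf6, a ubiquitin ligase of the endoplasmic reticulum, had 38 fragments at chromosome 15, 31473127 to 31473364, and 120 with Nkx2-1 deletion (1.66, 1.15 to 2.46). The others had ratios to Nkx2-1 deletion from 0.890 to 1.43 with intervals that include 1. Genes with 2 inside-gene summits were Mbnl1, a splicing regulator, Shroom3, an apical actin organiser, Zfp608 and Sox6, a SoxD factor, each with 1 summit or more shared with Nkx2-1 deletion. At Shroom3 the summit near an internal start was shared with wildtype only, and the other with Nkx2-1 deletion only.

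Outside genes the strongest summits were mostly shared. That nearest to Galntl6 had the largest −log10 q of all, 31.4, with 65 fragments at chromosome 8, 57725275 to 57725547, and was held by wildtype at 62 (ratio 0.756, 0.525 to 1.09) but not with Nkx2-1 deletion. Klf13, Runx1, Smarce1, Ctsl, Tbl1xr1 and Fam91a1 were nearest to summits in all 3 lists, with 32 to 63 fragments, and Mycn to one shared with wildtype only. The summit 8.82 kb from Smarce1, a subunit of the SWI/SNF remodeller, at chromosome 11, 99200111 to 99200340, had 63 fragments against 40 with Nkx2-1 deletion, a ratio of 0.334 (0.219 to 0.504). This was the lowest ratio of any shared region in the list. Of the 114 outside summits, 57.0% overlapped Nkx2-1 deletion, 50.9% of those within 50 kb of a gene and 63.2% of those farther away, and 17 lay inside a long noncoding RNA span. Their median distance to a gene was 49.9 kb, and the farthest lay 2042 kb away.

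Gene lists chosen with earlier results of these data in view were also searched for members near an ectopic Sox2 summit. Of 218 genes in 14 lists, 6 had a summit within 1 kb of an end, where 0.169% of all protein-coding genes did: Palb2 and Fan1 of DNA repair, Snrpb2 of splicing, Ino80 of chromatin remodelling, Krt6a of the basal and squamous list, and Nrarp of Notch. Palb2, Fan1, Snrpb2, Ino80 and Nrarp were put on their lists with their binding already known, so their count is no independent evidence. Within 50 kb, a window that takes in 1.53% of all protein-coding genes (2.85% in wildtype and 13.1% with Nkx2-1 deletion), there were also Krt5 at 12.5 kb on the Krt6a summit, Tubb4b at 41.5 kb on the Nrarp summit, Dll1 at 3.92 kb, Notch2 at 40.1 kb, Mycn at 41.4 kb, Cspg4 at 1.51 kb, and Vsnl1 and Tead1 inside their genes. No gene of the alveolar type 1 (10 genes), alveolar type 2 (12), cytosolic ribosome (16) or mitochondrial respiration (16) lists had one. With lists this short and a share of 1.53% over all genes, these 0 counts cannot be read as a depletion. The ribosome list also did not include Rpl22, which has an ectopic Sox2 summit near a listed start.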

How the data were processed

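Sox2 ChIP was sequenced as single 50 bp reads after crosslinking with EGS and formaldehyde, per the labels' protocols. The submitters' processing notes name Bowtie2 2.2.9, SAMtools 1.4, MACS2 2.1.1, HOMER 4.8.3 and mm10. Which control and threshold were used is not given in the sources used here. No input or IgG library was read, and control signal entered only through the authors' fold and −log10 p. Each deposited row carries the authors' values: a peak score, a ratio (fold) of ChIP to control, −log10 p, −log10 q and the offset of the summit. From fold and −log10 p, each summit's whole ChIP fragments and control were recovered as the values that give both back, within 0.002 on −log10 p; 100%, 99.3% and 99.5% of summits (ectopic Sox2, wildtype, Nkx2-1 deletion) had 1 solution. The lowest control of a library was taken as its mean coverage: 0.764, 0.963 and 1.45 fragments. A depth-scaled ratio is the ratio of fragments at overlapping summits over the ratio of these means, with an exact conditional binomial interval. Genes are RefSeq GRCm38.p6 protein-coding spans, and promoter windows come from the same release. The recovery and the class rule were tested on simulated data. Genes named are the gene-end genes (1 is not reported here), the 8 summits of largest −log10 q inside and outside genes, genes with 2 inside summits, those next to the 1 kb limit and list genes within 50 kb. The members, gene lists and motifs were chosen with earlier results of these data known.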

Additional observations from a re-analysis of the deposited data

How the results depend on the processing

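No paired analysis was possible because each condition has 1 Sox2 library and no value comes from a test. Of 252 recomputed values of 23 results, 242 stayed within the interval of the reported value, or within 1.5 times of it for counts. With ends of all annotated genes the gene-end share was 19.7% with ectopic Sox2, 8.51% in wildtype and 7.84% with Nkx2-1 deletion. A 2 kb limit gave 6.57% with Nkx2-1 deletion and 6.52% in wildtype, and a 500 bp limit gave 2.39% with Nkx2-1 deletion. Keeping summits of −log10 q of at least 5 gave a median fold of 7.30 inside genes and 7.54 outside, and 44.9% of outside summits overlapped Nkx2-1 deletion. Subtracting the control gave a median wildtype ratio of 0.968 outside genes. In a shorter promoter window the E-box stood in 4.55% and TATA in 0%. The gene-end ratio of Nkx2-1 deletion to ectopic Sox2 was 0.621 with the control subtracted and 0.848 with a 2 kb limit. It was 1.04 with ends of all annotated genes. Each of these counts as unmoved because the interval of the reported median is wide, from 0.580 to 1.09. Leaving out a library was not possible with 1 per condition. Fragments were recovered from listed summits only, so sites under a list's threshold have no value.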

Other observations

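Ends of noncoding genes added 12 ectopic Sox2 summits to the gene-end class, and all 12 lay at long noncoding RNA genes. No ectopic Sox2 summit lay within 1 kb of a microRNA gene (0 of 229). The share of sequence near such genes and the counts in the other lists were not taken, so this 0 cannot be read as a depletion. By chromosome, the ectopic Sox2 list held 0 of its 229 summits on X and 1 on chromosome 19. The wildtype list held 3 and 15 of 552, and the Nkx2-1 deletion list 34 and 140 of 2589. The lists differ in length, so the raw counts are not comparable, and no difference in share was tested.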
